A study of Homo sapiens with 24 samples.

Results

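The vehicle arm of a time course in A549 cells is described here: the 12 libraries of cells that received ethanol (EtOH) and no hormone, out of 24 libraries in the series, chosen by the treatment in their labels. A549 is an established human line derived from a lung adenocarcinoma. The other 12 libraries came from cells given 100 nM dexamethasone (dex), a synthetic glucocorticoid, and they enter only where the 2 arms are compared. EtOH was the solvent of the hormone at 0.02% by volume, so the dex cells carried it too, and no library of cells without EtOH was analysed here. The first harvest was at 1 hour and the last at 11 hours, with 1 every 2 hours and 2 replicates at each of the 6 time points. The cells grew in F-12K medium with 10% fetal bovine serum and 1% penicillin-streptomycin, and were harvested at a confluence of about 80%. Poly-A RNA was sequenced in all of them. The labels name no change of medium, no cell cycle arrest and no day of harvest, so hours with EtOH, hours in culture and the order of handling cannot be told apart. Nothing in the labels says that the replicates were separate cultures, so p-values measure the spread between these libraries, which may be technical.

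A vehicle control is usually read as a flat baseline, but cultured cells are never still. They use up nutrients and growth factors from the medium, pass through the cell cycle, and keep feedback loops running that are set in motion when plates are handled. In p53 signalling, for example, stress stabilises a transcription factor whose targets halt division (CDKN1A), export or degrade the factor itself (MDM2) and damp growth signalling (SESN1, SESN2), and the level of these messages can shift within hours. A549 cells also carry a well-known loss of KEAP1 function, so that the NRF2 programme, which includes the pentose phosphate enzyme PGD, is active in them.

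Each library held between 7813353 and 13619043 counts, with a median of 10112359.5. Counts were summed per gene, scaled to library size as CPM with edgeR's TMM factors, and 19286 features passed the filter on low counts. The biological coefficient of variation shared by the features was 8.58%. Some libraries stood apart. The first library of 11 hours was the smallest and held 3.30% mitochondrial counts, against 4.34% to 5.63% in the other 11. The second library of 9 hours held 3.52% ribosomal protein counts, against 2.46% to 3.07% in the others, and the 2 libraries of 9 hours differed by a median of 0.18 in log2, against 0.12 to 0.13 at the other time points. The libraries also differed in the balance between transcripts rich and poor in GC bases. Over 10645 genes, the difference between the GC-richest genes (57.1% to 73.8%) and the GC-poorest (27.8% to 41.1%), 2129 in each group, deviated from the mean library by -0.27 and -0.20 on the log2 scale in the 2 libraries of 7 hours. It deviated by -0.28 in the first library of 3 hours, 0.41 in the second library of 9 hours and 0.23 in the first library of 5 hours. The first principal component, which held 35.0% of the variance, placed the 2 libraries of 7 hours and the first of 3 hours at one end, and the second library of 9 hours and the first of 5 hours at the other. Results are therefore given from the counts as deposited and, where they differ, after a correction of each library for GC content and transcript length, which was chosen after the data were seen and covers 14895 features. The part of these properties in the results was not tested beyond that correction and leaving out each library.

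**Figure D1:**
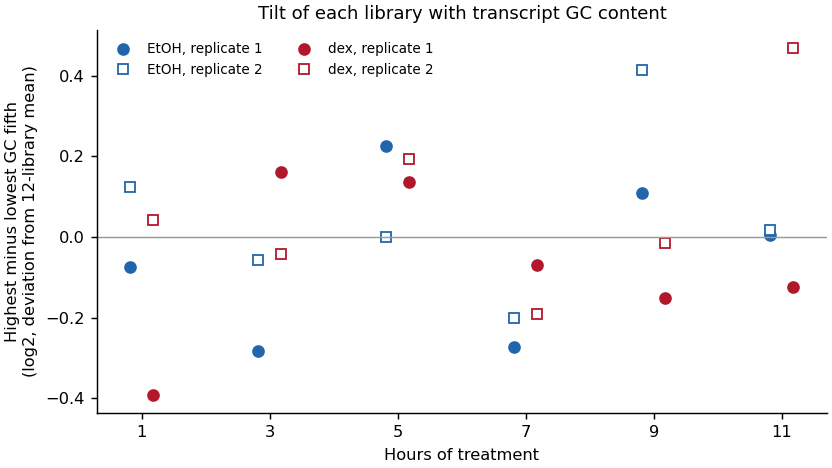
Difference between the 2129 GC-richest and the 2129 GC-poorest genes (log2, vertical axis) in each library against hours of treatment, with EtOH in blue, dex in red, filled circles for replicate 1 and open squares for replicate 2. Both EtOH libraries of 7 hours lie below 0 (-0.27 and -0.20), and the second EtOH library of 9 hours is the highest of its arm at 0.41.

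Most genes moved little between 1 and 11 hours without hormone. Among the 10645 genes with a mean of at least 5 CPM, the median size of the linear change over 10 hours was 0.10 on the log2 scale and 95% of genes were below 0.34. The interval of 2 standard errors around that change lay within a 2-fold rise or fall for 99.2% of these genes and within 1.5-fold for 89.9%. The highest mean of any time point exceeded the lowest by 1.24-fold for the median gene. Only 27 genes had a ratio of at least 2-fold between the means of any pair of time points, on the log2(CPM + 0.5) scale, and 8 of those passed the test over all time points.

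That test, edgeR's quasi-likelihood F-test with Benjamini-Hochberg adjustment at a threshold of 0.1, called 624 features (3.24% of those tested). In simulated data 15.9% of the calls of this test were false, more than the threshold allows. A single fit over all 24 libraries called 14 features by the same contrasts among the EtOH time points. The 624 calls were not spread evenly over the harvests. The lowest mean fell at 7 hours in 274 of the 624 features (43.9%, against 22.3% of all features) and the highest fell at 9 hours in 223 (35.7%, against 21.8%). A steady drift was rarer: the linear trend passed for 9 features that rose (0.0467%) and 2 that fell (0.0104%). After correction for GC content and length the picture shifted from the 7-hour excursion toward trends, with 251 features called over all time points (1.69% of 14895), 54 rising (0.363%) and 37 falling (0.248%).

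The gene with the best known function among those that rose was CDKN1A (ENSG00000124762, chr6:36676460-36687339 on the plus strand of GRCh38), which encodes the cyclin-dependent kinase inhibitor p21. Its level was 59.9 and 61.3 CPM at 1 hour, 59.6 and 74.2 at 3 hours, 95.1 and 82.8 at 5 hours, 57.7 and 62.0 at 7 hours, 82.1 and 80.9 at 9 hours, and 103 and 96.5 at 11 hours. Both libraries of 11 hours were above the other 10, and the ratio of the means at 11 and 1 hours was 1.65. The path was not straight, and the libraries of 7 hours were near those of 1 hour. The fitted line rose by 0.55 ± 0.09 (SE) in log2 over 10 hours, with an adjusted p of 0.0143 by the edgeR test, and by 0.49 ± 0.08 after correction (adjusted p 0.00697). With dex the rise was 0.94 ± 0.10 (adjusted p 4.03e-08), and the difference between the arms, 0.38 ± 0.14, did not pass (adjusted p 0.139). CDKN1A thus rose without the hormone, and a larger rise with it was not shown.

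TPT1-AS1 and NSMF had larger fitted rises. TPT1-AS1, a long noncoding RNA transcribed opposite TPT1, lay at 88.0 and 82.6 CPM at 1 hour, below all other libraries, and reached 164 and 134 CPM at 11 hours. Its line rose by 0.63 ± 0.09 in log2 (adjusted p 0.00684), without the dip at 7 hours, where it stood at 133 and 134 CPM. NSMF, which encodes a messenger protein between synapse and nucleus first described in neurons, went from 34.5 and 41.2 CPM at 1 hour to 67.3 and 64.5 CPM at 11 hours, the latter above the other 10 libraries. Its rise was 0.72 ± 0.11 (adjusted p 0.00684). Both also rose with dex, by 0.35 ± 0.10 and 0.47 ± 0.14. Whether the counting used the strand of the reads is not named in the sources used here, so reads of TPT1-AS1 and of the opposite strand cannot be told apart.

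The other genes that rose have unrelated known roles. CD320, the receptor that takes up vitamin B12 bound to transcobalamin, rose by 0.56 ± 0.09 (adjusted p 0.0143), from 46.1 and 49.7 CPM at 1 hour, its 2 lowest libraries, to 78.8 and 68.3 CPM at 11 hours. With dex it rose by 0.82 ± 0.10. NDUFB6, a subunit of mitochondrial complex I, had its 2 lowest libraries at 1 hour (68.8 and 66.2 CPM) and its 2 highest at 11 hours (100.1 and 93.9 CPM), a rise of 0.42 ± 0.08 (adjusted p 0.0887). DYNLL1, a light chain of dynein, the motor that carries cargo along microtubules, rose by 0.43 ± 0.09 (adjusted p 0.0887), from 231 and 193 CPM to 308 and 297 CPM. CORO1B, a coronin that controls branched actin, was highest in the 2 libraries of 11 hours (35.8 and 33.6 CPM) after 16.2 and 24.2 CPM at 1 hour, and rose by 0.84 ± 0.16 (adjusted p 0.0887). Low in level were MACROD1, an enzyme that removes ADP-ribose from proteins, with 21 to 64 counts a library and a rise of 1.10 ± 0.23, and the antisense transcript AL031600.3, with 29 to 112 counts and a rise of 1.00 ± 0.20 (adjusted p 0.0887 for each). MACROD1 did not pass after correction (adjusted p 0.101), while the other 10 features with a trend did.

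Only 2 genes fell steadily in the counts as deposited. OSBPL9, a member of the oxysterol-binding protein family of lipid carriers, lay at 63.9 and 62.9 CPM at 1 hour and at 43.2 and 48.5 CPM at 11 hours, a fall of 0.48 ± 0.10 in log2 (linear change -0.48, adjusted p 0.0887). HNRNPA1L2, an intronless relative of the splicing factor HNRNPA1, had its 2 highest libraries at 1 hour (45.5 and 51.5 CPM) and stood at 31.8 and 34.5 CPM at 11 hours, a linear change of -0.49 ± 0.10 (adjusted p 0.0887). Its sequence is nearly that of HNRNPA1 and its pseudogenes, and how reads matching several transcripts were placed is not named, so its value is uncertain. All 11 of these trends lost the call when the time point of 11 hours was left out, and all but CORO1B did without the time point of 1 hour. A fit with hours as a number gave 0 rising and 0 falling in all 12 libraries. Each replicate alone was fitted only with that model, so those fits cannot tell what either replicate adds to the calls. Without the first library of 11 hours, the one with the fewest counts and the lowest mitochondrial share, 0 features passed, without the first library of 9 hours 173 rose and 49 fell, and without the second of 9 hours 86 rose and 67 fell.

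**Figure D2:**
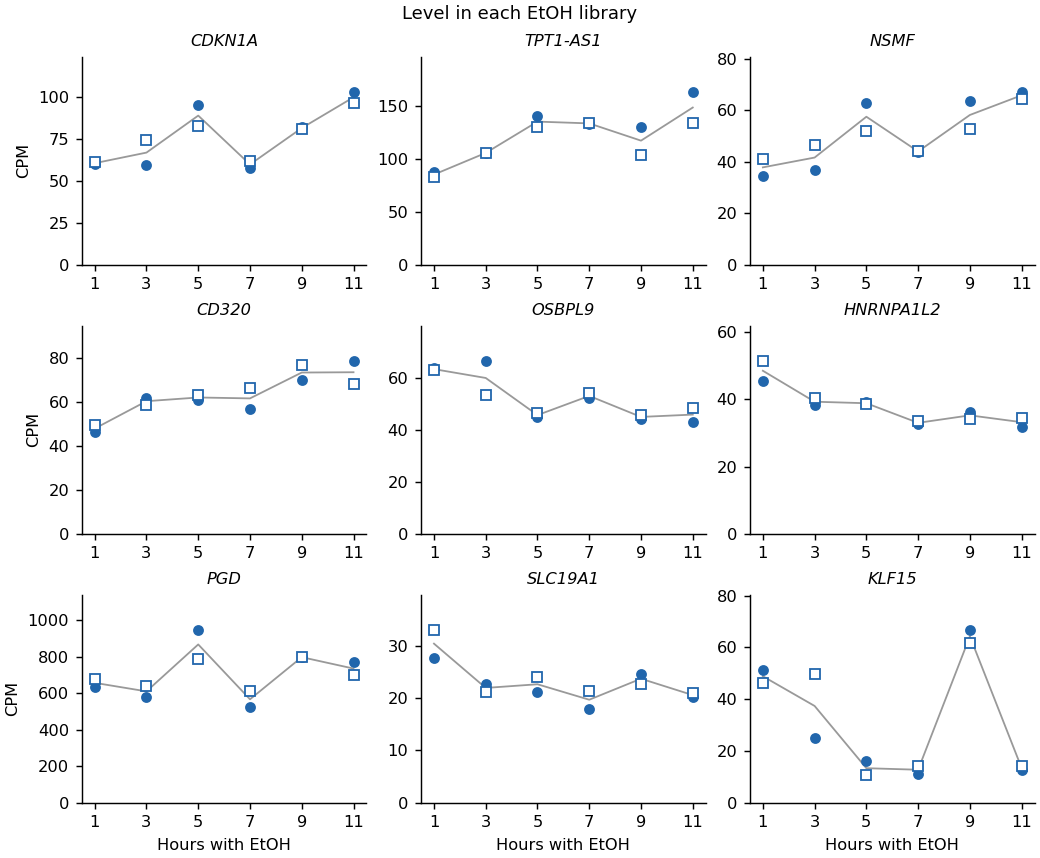
Level (CPM, vertical axes from 0) of 9 genes in each EtOH library against hours of treatment, with filled circles for replicate 1, open squares for replicate 2 and a grey line through the means. CDKN1A, TPT1-AS1, NSMF and CD320 rose with time, OSBPL9 and HNRNPA1L2 fell, PGD dipped at 7 hours, SLC19A1 was highest at 1 hour (27.7 and 33.1 CPM), and KLF15 was high at 1 and 9 hours.

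Correction for GC content and length made 81 further trends pass, all 91 with the sign they had before it. Most of the 91 lost the call in the corrected fit when the first library of 11 hours was left out, and likewise without the first library of 1 hour. The trends named below therefore rest on single libraries. The median size of the 91 trends was 0.40 in log2. Among all features 0.363% rose and 0.248% fell after correction, and the members of the pathway lists are read against these shares. Of 30 tested p53 targets 2 rose, CDKN1A and PLK2, a polo-like kinase (corrected linear change 0.30 ± 0.06, from 404 and 389 CPM at 1 hour to 522 and 499 CPM at 11 hours, adjusted p 0.0364). Of 31 genes of glycolysis and hypoxia 2 rose: EGLN1, the oxygen-sensing prolyl hydroxylase that marks HIF for degradation (0.35, adjusted p 0.0596), and BNIP3, a mitophagy receptor (0.32, adjusted p 0.0865). Of 21 cytosolic chaperones 1 rose, the HSP40 co-chaperone DNAJB1 (0.31, adjusted p 0.0688), and of 54 genes of the G2 and M phases 1 rose, the CDK-binding protein CKS2 (0.29, adjusted p 0.0935).

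Of 77 cytosolic ribosomal proteins 1 rose and 1 fell after correction, against 0.363% and 0.248% of all features, so single members are described and not the complex. RPS20 rose (0.43 ± 0.07, adjusted p 0.00697) and RPLP2 fell (-0.46 ± 0.08, adjusted p 0.0134), and the median of the list was 0.02. RPS20 lay at 391 and 379 CPM at 1 hour and at 550 and 508 CPM at 11 hours, and RPLP2 at 443 and 363 CPM and then at 273 and 266 CPM. Of 37 nuclear genes of oxidative phosphorylation 1 also rose and 1 fell. COX4I1 rose (0.32, adjusted p 0.0865) and COX7C fell (-0.43 ± 0.08, adjusted p 0.0183), both subunits of cytochrome c oxidase, with a median of 0.05 over the list. Many ribosomal protein genes have processed copies elsewhere in the genome, so the split of reads among them is uncertain.

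The 37 features that fell after correction (0.248%) included 1 of the 23 genes of the SRF, YAP and actin list, ACTB, and 1 of the 35 of the NRF2 list, AKR1B10. RHOA, the small GTPase that drives stress fibre formation, changed by -0.36 ± 0.07 (adjusted p 0.0311), and the corrected change of ACTB, cytoplasmic actin, was -0.29 ± 0.07 (adjusted p 0.089). AKR1B10, an NRF2-driven aldo-keto reductase typical of A549, was highest in the 2 libraries of 1 hour (2549 and 2631 CPM) and stood at 2138 and 2053 CPM at 11 hours, with a corrected change of -0.27 ± 0.06 (adjusted p 0.0822). SMOX, spermine oxidase, went from 111 and 128 CPM to 78.3 and 76.3 CPM (corrected change -0.45 ± 0.08, adjusted p 0.0134). TFF1, a small secreted trefoil protein, had the second largest corrected fall, -1.77 ± 0.40 (adjusted p 0.0617), on 4 to 68 counts a library.

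Among the 54 that rose after correction were RACK1, a scaffold on the small ribosomal subunit (0.28), the mitotic kinesin KIF20A (0.34), securin PTTG1 (0.35), the vacuolar ATPase subunits ATP6V1G1 (0.36) and ATP6V0B (0.40), and the peroxidase PRDX5 (0.50), with adjusted p between 0.0362 and 0.0834. ATP6V1G1 lay at 65.9 and 62.8 CPM at 1 hour and at 83.1 and 86.2 CPM at 11 hours, with the same trend, 0.36 ± 0.09, in the dex arm. Over all 91 features, 72 had the same sign in the dex arm (79.1%), which shares no library with the vehicle arm, against 55.3% of all 14895 features, and 35 passed there with the same sign. The trend differed between the arms for 9 of the 91.

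SLC19A1 (ENSG00000173638, chr21:45493572-45544411 on the minus strand of GRCh38), the reduced folate carrier, showed a decline that depended on the correction. Its level was 27.7 and 33.1 CPM at 1 hour, 22.7 and 21.1 at 3 hours, 21.2 and 24.1 at 5 hours, 18.0 and 21.4 at 7 hours, 24.7 and 22.7 at 9 hours, and 20.2 and 20.9 at 11 hours. The 2 libraries of 1 hour were above the other 10, and those 10 overlapped among themselves. It passed the test over all time points (adjusted p 0.064), but the linear change of -0.38 ± 0.12 did not (adjusted p 0.259). After correction the change was -0.52 ± 0.11 (adjusted p 0.057). The dex arm, in the counts as deposited, gave -0.53 ± 0.14 (adjusted p 0.0081), to be set beside the -0.38 with EtOH. Of the 26 tested genes of the folate, one-carbon and serine pathway, 2 passed the test over all time points, against 3.24% of all features, and the median linear change was 0.0050.

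PGD (ENSG00000142657, chr1:10398592-10420144 on the plus strand of GRCh38), 6-phosphogluconate dehydrogenase, which makes NADPH in the pentose phosphate pathway, varied without a trend. It read 634 and 679 CPM at 1 hour, 578 and 641 at 3 hours, 947 and 786 at 5 hours, 522 and 610 at 7 hours, 798 and 796 at 9 hours, and 770 and 699 at 11 hours. The libraries of 5 and 9 hours lay above those of 1, 3 and 7 hours with no overlap. The test over all time points passed (adjusted p 0.0211) and the linear change of 0.19 ± 0.09 did not (adjusted p 0.537). Between 5 and 7 hours PGD fell by 0.61 ± 0.10 in log2 (step -0.61, adjusted p 0.00855), and from 7 to 9 hours it rose by 0.49 ± 0.10 (adjusted p 0.0122). After correction the fall of 0.46 still passed (step -0.46, adjusted p 0.033) and the return of 0.29 did not (adjusted p 0.122).

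Many genes dipped at 7 hours as PGD did. Between neighbouring harvests, 860 features changed from 5 to 7 hours (4.46%), 390 up (2.02%) and 470 down (2.44%), and 2090 from 7 to 9 hours (10.8%), 1188 up (6.16%) and 902 down (4.68%). From 3 to 5 hours 7 changed (0.0363%), and 5 after correction (0.0336%). From 1 to 3 hours edgeR called 0 features (975 at an unadjusted p under 0.05) and DESeq2 0, and from 9 to 11 hours edgeR called 0 (1551 at an unadjusted p under 0.05) and DESeq2 2. The middle steps share the libraries of 7 hours. The genes that went up from 7 to 9 hours had a median GC content of 58.3% and those that went down 39.9%, against 48.5% over all.

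The number of calls around 7 hours depended on single libraries and on the correction. Without the first library of 7 hours, the steps from 5 to 7 and from 7 to 9 hours gave 0 and 1 calls. Without the first library of 5 hours the step from 5 to 7 hours gave 0. Without the second library of 7 hours they gave 810 and 1357, without the first of 9 hours 1665 and 3444, and without the second of 9 hours, the library with the largest GC tilt, 1696 and 720. The test over all time points, which called 624, gave 23 without the first library of 7 hours, 168 without the first of 5 hours, 297 without the first of 11 hours, 2305 without the first of 9 hours and 1080 without the second of 9 hours. After correction for GC content and length the counts were 309 (2.07%), of which 125 rose (0.839%) and 184 fell (1.24%), and 292 (1.96%), of which 183 rose (1.23%) and 109 fell (0.732%). In the 2 steps 213 and 217 features were also called in the counts as deposited, and the GC medians of the called genes lay between 48.0% and 50.7%. Without the first library of 7 hours the corrected fit gave 0 calls in either step.

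**Figure D3:**
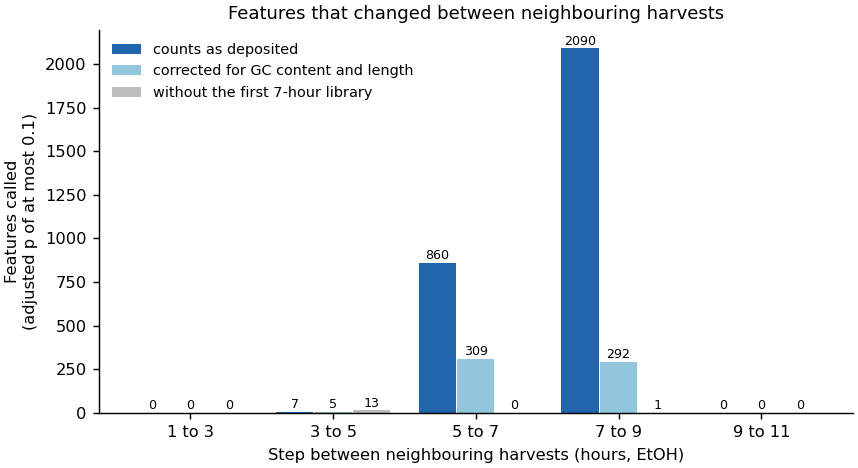
Number of features called (vertical axis) in each step between neighbouring harvests with EtOH, from the counts as deposited, after correction for GC content and length, and without the first library of 7 hours. The steps from 5 to 7 hours (860) and from 7 to 9 hours (2090) hold nearly all calls, and leave 0 and 1 without that library.

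The genes that dipped at 7 hours with the smallest p-values included NOSIP, an E3 ligase that binds nitric oxide synthase. It lay at 28.1 and 23.1 CPM at 5 hours, 10.8 and 14.6 at 7 hours, and 22.4 and 22.2 at 9 hours. Both steps passed, with -1.01 ± 0.15 (adjusted p 0.00855) and 0.81 ± 0.16 (adjusted p 0.00815), and the first also after correction (-0.76, adjusted p 0.033). TALDO1, transaldolase, which acts beside PGD in the pentose phosphate pathway, had its 2 lowest libraries at 7 hours (172 and 196 CPM) and its 2 highest at 9 hours (291 and 337 CPM). It rose by 0.77 ± 0.11 from 7 to 9 hours (adjusted p 0.00252, after correction 0.50 with adjusted p 0.0129), and this step differed from that in the dex arm, where it was -0.03 ± 0.12 (adjusted p of the difference 0.0699). Of 35 tested NRF2 targets and pentose phosphate enzymes 7 fell from 5 to 7 hours, against 2.44% of all features, and 4 after correction, against 1.24%.

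ADRM1, the ubiquitin receptor of the proteasome, stood at 36.9 and 44.2 CPM at 7 hours, below the other 10 libraries, and at 79.4 and 82.1 CPM at 9 hours, the 2 highest. Its steps were -0.74 ± 0.14 (adjusted p 0.0136) and 0.99 ± 0.14 (adjusted p 0.00252), and after correction -0.48 and 0.60, both still past the threshold. PSMC1, an ATPase of the proteasome's cap, has a GC content of 47.7%, near the median of all genes, and its steps were the same before and after correction to within 0.02: -0.53 and 0.59 before, -0.51 (adjusted p 0.033) and 0.59 (adjusted p 0.0129) after. SDHB, the iron-sulphur subunit of succinate dehydrogenase, fell from 131 and 108 CPM at 5 hours to 66.7 and 82.3 CPM at 7 hours (step -0.68 ± 0.12, adjusted p 0.0101, after correction -0.61 with adjusted p 0.033). UQCRC1 of complex III fell by 0.70 (step -0.70, adjusted p 0.00884) and rose again by 0.69 (adjusted p 0.00714). Of the 37 oxidative phosphorylation genes 3 fell from 5 to 7 hours, against 2.44% of all features, and 2 after correction, against 1.24%. The 13 genes of the mitochondrial genome had 0 calls in either step (edgeR), with median steps of 0.08 and -0.26.

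DDIT4, a stress-induced brake on mTORC1, fell from 101 and 80.8 CPM at 5 hours to 58.2 and 50.5 CPM at 7 hours (step -0.74 ± 0.12, adjusted p 0.00855), and it fell with dex too (step -0.80 ± 0.12, adjusted p 0.00449). IER3, an immediate early gene that opposes apoptosis, was lowest at 7 hours with 11.1 and 12.2 CPM, below the other 10 libraries, where it lay between 16.0 and 22.3 CPM. Its step from 5 to 7 hours was -0.85 ± 0.15 (adjusted p 0.00855, after correction -0.62 with adjusted p 0.0439). CDKN1A itself fell by 0.57 in that step (-0.57 ± 0.11, adjusted p 0.0141) and rose by 0.45 in the next (adjusted p 0.0247), but after correction only the fall passed (-0.38, adjusted p 0.0581).

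Other genes peaked where these dipped. FNTA, the alpha subunit of the farnesyltransferase that attaches lipid anchors to RAS proteins, had its 2 highest libraries at 7 hours (71.8 and 70.1 CPM) and lay at 42.2 and 42.7 CPM at 9 hours. It changed by 0.53 ± 0.12 from 5 to 7 hours (adjusted p 0.0274) and by -0.74 ± 0.12 from 7 to 9 hours (adjusted p 0.00663), and after correction by 0.50 and -0.67, both past the threshold. SMAD7, the inhibitor that feeds back on TGF-beta signalling, peaked at 80.2 and 73.0 CPM at 7 hours, above the other 10 libraries, of which the highest was at 62.0 CPM. Its rise from 5 hours was 0.43 ± 0.11 (adjusted p 0.0396), and after correction 0.57 ± 0.10 (adjusted p 0.033). Its GC content is 58.4%. Of 17 tested TGF-beta and BMP targets 3 rose in this step, against 2.02% of all features: SMAD7, SKIL (0.47, adjusted p 0.047) and ID2 (0.43, adjusted p 0.0374). After correction 3 rose, against 0.839%: SMAD7, ID2 and TGFB1, the ligand itself (0.54, adjusted p 0.033). CTGF, a matricellular protein and target of YAP, rose in that step by 0.54 ± 0.12 (adjusted p 0.0248). It went from 24.3 and 25.5 CPM at 5 hours to 35.3 and 37.2 CPM at 7 hours and was back at 23.9 and 23.7 CPM at 11 hours. In the dex arm CTGF rose in the same step by 0.86 ± 0.12 (adjusted p 0.00104).

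**Figure D4:**
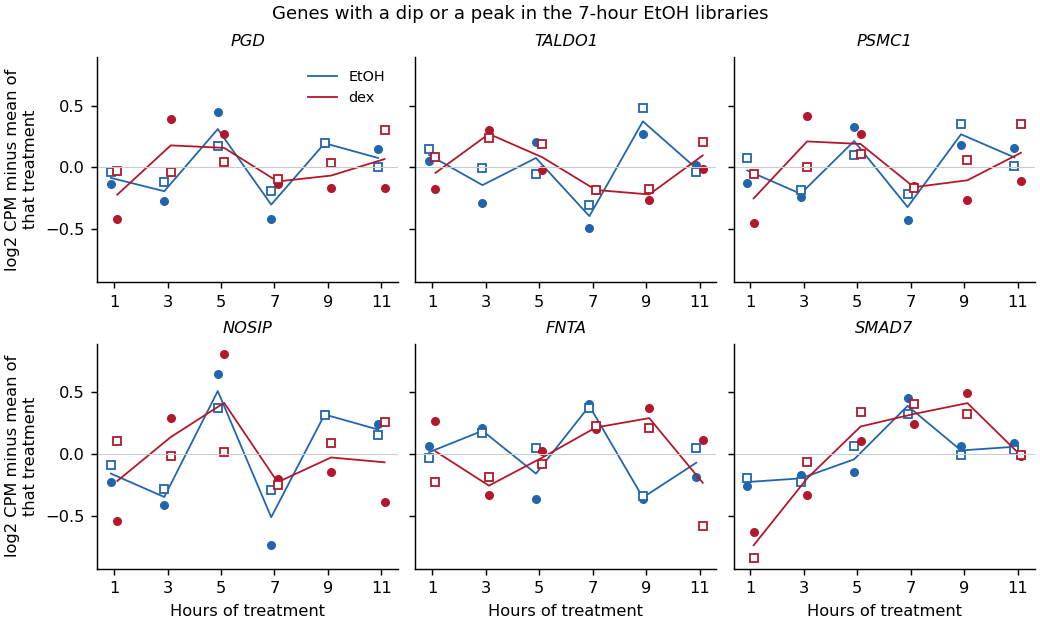
Levels of 6 genes in each library as log2 CPM minus the mean of the 12 libraries of the same treatment (vertical axis) against hours, with EtOH in blue, dex in red, filled circles for replicate 1, open squares for replicate 2 and lines through the means. PGD, TALDO1, PSMC1 and NOSIP are low and FNTA and SMAD7 high in both EtOH libraries of 7 hours, and the mean dex steps from 7 to 9 hours lie between -0.03 and 0.22.

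The same intervals can be read in the separate libraries of the dex arm, where the step from 5 to 7 hours was shared and that from 7 to 9 hours was not. Of the 731 joined genes that changed from 5 to 7 hours with EtOH, 688 had the same sign in that step with dex, against 66.2% of all 14895 genes. The median step of those going up was 0.47 with EtOH and 0.26 with dex, and of those going down -0.50 and -0.22. With dex, 56 features passed by themselves in that step (0.281%). The GC tilt of the dex libraries also fell in that interval, from 0.14 and 0.19 at 5 hours to -0.07 and -0.19 at 7 hours. Of the 213 genes called with EtOH in both fits, 197 had the same sign with dex, where the steps were not corrected for GC content. The part of the tilt in this agreement was not tested. The step from 7 to 9 hours was different: 935 of 1821 genes had the same sign in both arms, against 51.4% of all genes, the median steps with dex were 0.0088 and 0.00024, and edgeR called 0 features with dex (971 at an unadjusted p under 0.05). The difference between the arms passed for 0 features in the step from 5 to 7 hours (793 at an unadjusted p under 0.05) and for 13 in the step from 7 to 9 hours (0.0653%).

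The gene with the largest ratio between time points among the called genes of at least 5 CPM was picked out after its values were seen. KLF15 (ENSG00000163884, chr3:126342635-126357442 on the minus strand of GRCh38), a Krüppel-like transcription factor of amino acid and glucose metabolism and a known target of the glucocorticoid receptor, read 51.3 and 46.4 CPM at 1 hour and 25.0 and 49.7 CPM at 3 hours. It then lay at 16.0 and 10.7 CPM at 5 hours and 11.3 and 14.2 CPM at 7 hours, stood at 66.8 and 61.7 CPM at 9 hours, and was back at 12.5 and 14.3 CPM at 11 hours. Both libraries of 9 hours were above the other 10. The test over all time points passed (adjusted p 0.0372), as did the step from 7 to 9 hours, 2.33 ± 0.32 or 5.04-fold (adjusted p 0.0135, after correction 2.06 with adjusted p 0.0403). The step from 9 to 11 hours, -2.26 ± 0.33, did not pass (adjusted p 0.247).

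With dex KLF15 declined from 80.3 and 88.8 CPM at 1 hour to 16.3 and 17.5 CPM at 11 hours and lay at 13.8 and 24.2 CPM at 9 hours, so no second peak was seen there. Its step from 7 to 9 hours differed between the arms (adjusted p 0.0834), and so did its linear trend (-1.13 ± 0.32, adjusted p 0.0462). Over the 12 EtOH libraries, the profiles most like it among 10645 genes were those of CTIF (Pearson's r 0.90), SLIRP (0.89), GADD45A (0.89) and IL1RAPL1 (0.89), given as a description. Over all 24 libraries r was 0.70, 0.78, 0.14 and 0.88 for them. IL1RAPL1, which encodes a receptor-like synaptic protein, lay at 7.59 and 7.79 CPM at 9 hours, between 3.68 and 5.23 CPM at 7 hours and between 2.94 and 4.01 CPM at 11 hours, and rose from 7 to 9 hours by 0.79 ± 0.22 (adjusted p 0.0396).

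FKBP5, a co-chaperone of the receptor and one of its strongest targets, lay between 21.1 and 28.1 CPM in the 12 EtOH libraries (linear change -0.15 ± 0.11, adjusted p 0.731), while with dex it went from 38.3 and 39.9 CPM at 1 hour to 357 and 368 CPM at 11 hours. The difference in trend was 2.83 ± 0.12 (adjusted p 1.25e-15). Of 10 tested glucocorticoid targets 1 passed the test over all time points, against 3.24% of all features, and 5 had an unadjusted p under 0.05. The gene that passed was ERRFI1, a feedback inhibitor of the EGF receptor, which lay between 101 and 138 CPM (adjusted p 0.0778). From 7 to 9 hours 2 of the 10 rose, against 6.16% of all features, and 0 after correction. Across all features, the linear trend differed between the arms for 1403 of 19897 (7.05%). With dex alone 3302 passed (16.6%).

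Among the features that trended with EtOH, 2 did so differently with dex. DYNLL1 had a change of -0.09 ± 0.09 there, a difference of -0.52 (adjusted p 0.00802), and OSBPL9 one of 0.05 ± 0.10, a difference of 0.53 (adjusted p 0.0209). For the other 9 the difference did not pass, which does not show that the arms acted alike.

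Of the p53 targets, 7 of 30 tested genes passed the test over all time points (23.3%, against 3.24% of all features), and 6 after correction, against 1.69%. In the counts as deposited CDKN1A was the member with a trend, PLK2 passed with it after correction, and the median linear change of the list was 0.05 against -0.0016 over all features. SESN1, which restrains mTORC1, had its lowest 2 libraries at 1 hour (14.1 and 15.0 CPM) and its highest 2 among the 12 at 11 and 3 hours, with 23.9 and 23.4 CPM. PPM1D, the phosphatase WIP1 that switches p53 off, was at 20.7 and 23.6 CPM at 9 hours and at 33.1 and 35.2 CPM, its 2 highest, at 11 hours (adjusted p over time 0.0391). BTG2, an antiproliferative factor, likewise had its 2 lowest libraries at 9 hours (6.86 and 6.25 CPM) and had its highest mean at 11 hours (12.7 and 12.5 CPM, adjusted p 0.0507). BAX, the apoptosis effector, was highest at 9 hours with 63.5 and 73.7 CPM (adjusted p 0.0673), but not after correction (adjusted p 0.581). SESN2 and MDM2 passed with adjusted p of 0.0778 and 0.0897.

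Of 23 genes of the SRF, YAP and actin list 5 varied over time, against 3.24% of all features: ACTN1, CTGF, TAGLN2, AJUBA and ACTB. After correction 5 of the list did so, against 1.69%. ACTN1, the actin cross-linker, read 232 and 243 CPM at 7 hours, below the other 10 libraries, and 334 and 363 CPM at 9 hours, and rose in that step by 0.55 ± 0.10 (adjusted p 0.00663, after correction 0.34 with adjusted p 0.0403). From 7 to 9 hours 8 of the 23 rose (6.16% of all features did), and 2 after correction (1.23%). In the same step 9 of 77 cytosolic ribosomal proteins rose, with a list median of 0.22, and 3 after correction with a median of 0.08. Of 37 oxidative phosphorylation genes 9 rose, 1 after correction. Of 21 chaperones 7 rose, 2 after correction. RPL23 of the large ribosomal subunit was one whose dip did not depend on the correction, at 577 and 677 CPM at 7 hours after 938 and 879 CPM at 5 hours (step -0.53 ± 0.10, after correction -0.52 ± 0.10 with adjusted p 0.0439).

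The test over all time points passed for no member of several lists (edgeR), which are small, and at the 3.24% of all features each would hold less than 1 call. The circadian clock had 0 of 19 tested genes called, with 4 at an unadjusted p under 0.05 and 0 called by DESeq2, and a median linear change of -0.08. From 7 to 9 hours 2 of its members rose and 1 fell, against 6.16% and 4.68% of all features, and 0 passed after correction. PER1, a clock gene that also answers glucocorticoid, lay between 4.62 and 10.3 CPM. The mitochondrial genome had 0 of 13 called, with 0 at an unadjusted p under 0.05 and 0 by DESeq2, and a median of -0.11. Cholesterol synthesis and uptake had 0 of 25 called (6 unadjusted, 0 by DESeq2), amino acid transporters 0 of 15 (2 unadjusted, 0 by DESeq2) and fatty acid synthesis 0 of 13 (4 unadjusted, 2 by DESeq2). In single steps, 2 cholesterol genes and 1 fatty acid gene fell from 5 to 7 hours, against 2.44% of all features. From 7 to 9 hours 2 cholesterol genes rose, 2 fell, and 2 amino acid transporters rose, against 6.16% of all features rising and 4.68% falling. The enzymes that handle ethanol had 0 of 7 called, with 0 unadjusted and 0 by DESeq2, and their linear changes ran from -0.21 for ACSS2, an acetyl-CoA synthetase, to 0.32 for its mitochondrial relative ACSS1 (adjusted p 0.769 and 0.563).

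In the S phase list 2 of 42 tested genes passed the test over all time points, MCM2 and PRIM1, and in the G2 and M phase list 4 of 54 did, RANGAP1, JPT1, TUBB4B and G2E3, against 3.24% of all features. After correction 0 of either list passed this test (edgeR). The medians of the linear change were -0.06 and -0.0082. With dex 24 of the 42 S phase genes fell, against 6.98% of all features, and the median was -0.32. Of 29 immediate early genes, which answer serum and handling within an hour, 3 varied with EtOH (IER3, DUSP5 and BTG2), 1 of the 29 varied after correction, and 0 had a trend that passed (3 at an unadjusted p under 0.05). DUSP5, a phosphatase of ERK, lay between 44.9 and 81.1 CPM.

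**Figure D5:**
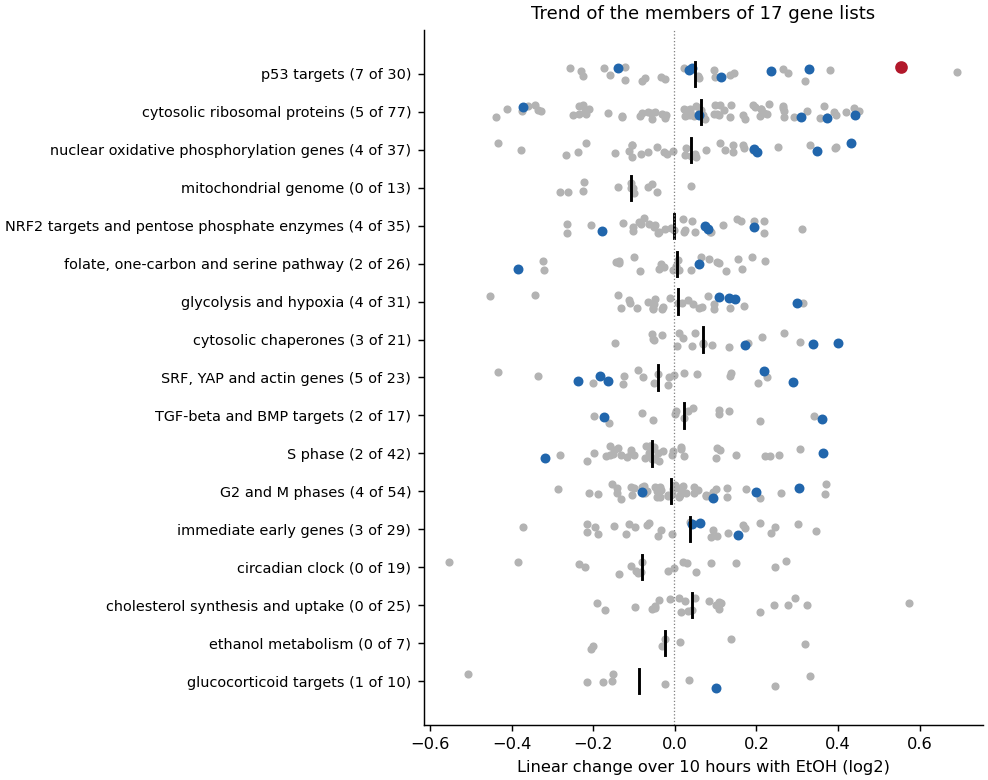
Linear change over 10 hours with EtOH (log2, horizontal axis) of each tested member of 17 gene lists, with a black bar at each list's median, blue points for members called over all time points (their number of how many tested beside each name), red for a called trend and grey for the rest. CDKN1A, at 0.55 among the p53 targets, is the red point, and the medians lie between -0.11 and 0.07.

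All 10 listed markers of A549 and epithelium passed the filter on low counts. Among them the keratin KRT8 lay between 1462 and 2492 CPM and KRT7 between 686 and 1166 CPM in the 12 libraries. AKR1B10, the reductase typical of A549, lay between 1972 and 2631 CPM. The levels of the other markers are not given here. Of the 10 tested markers of A549 and epithelium 2 varied over time, KRT7 and KRT8, against 3.24% of all features, both with their lowest means at 7 hours and their highest at 9 hours, and KRT8 but not KRT7 passed after correction (adjusted p 0.0902 and 0.394). Of 13 markers of blood, endothelial and connective tissue cells, 4 passed the filter on low counts (CD14, COL1A1, COL3A1 and LUM), and edgeR called 0 of them over all time points, with 2 at an unadjusted p under 0.05, 0 called by DESeq2 and linear changes between -0.11 and 0.28. CD14, a monocyte marker with 11 to 36 counts a library, fell from 5 to 7 hours (step -1.39, adjusted p 0.0755), but not after correction (adjusted p 0.181). The median steps of the 4 genes were -0.57 from 5 to 7 hours and 0.36 from 7 to 9 hours, the direction of the dip at 7 hours, and their part in it was not tested.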

How the data were processed

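Libraries were stranded, from poly-A RNA, and read for 50 bases at one end. Bowtie aligned the reads to the transcripts of GENCODE 19, and the authors deposited raw counts per transcript from SAMtools. How reads with several matches were placed, and whether strand was used, is not given in the sources used here. The processing notes give hg19. Groups come from the labels. Their treatment text gives 1 h for every library, while the duration runs from 1 to 11 hours and was used. The columns of both arms were used, and 0 others. Here 110262 of 119207 transcripts were joined by identifier to GENCODE 29 (GRCh38, whose gene spans are printed) and summed per gene, holding 94.1% of the EtOH counts, and the other 8945 stayed as single features.

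EtOH counts were fitted in edgeR 4.0.16 (R 4.3.3, TMM, default filterByExpr, robust quasi-likelihood) with 6 time points as groups. All 5 contrasts were tested at once, then the linear contrast as the log2 change over 10 hours, then each step, with Benjamini-Hochberg adjustment over all features. The standard error is the log2 change over the square root of its F statistic. The comparison of the arms used all 24 libraries. Linear changes and steps with dex are from the counts as deposited, without the correction. The correction for GC content and length was a loess offset per library. The fits were tested on simulated data, where the share of false calls stayed under the threshold for the linear contrast and exceeded it for the test over all time points. DESeq2 1.42.0 was an alternative.

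The libraries, gene lists and named genes were chosen with earlier results of these data known. Named were PGD, CDKN1A and SLC19A1, the 8 largest passing trends in each direction with the same sign in each replicate and at least 1 CPM, the 6 smallest p-values over time without a trend, the 3 smallest in each direction of each step, the 4 smallest in each direction of the difference between arms, the 6 smallest over time in each list, and all members of the clock, glucocorticoid, immediate early and mitochondrial genome lists. Genes with a trend after correction, other list members and KLF15 were chosen after their values were seen. With 2 libraries per group, calls rest on spread shared between features.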

Additional observations from a re-analysis of the deposited data

Results flagged for a closer look

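The linear change over 10 hours differed between the arms, by the interaction test of edgeR's quasi-likelihood fit with Benjamini-Hochberg adjustment, for 1403 genes. Of the features with a trend with EtOH, DYNLL1 differed by -0.52 and OSBPL9 by 0.53. In both, the fitted change with dex was near 0 (-0.09 and 0.05).

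Among genes that passed the test over all time points with EtOH, the smallest p-values of the difference in the direction of a higher change with dex were those of RBM20, a splicing factor (difference 2.05, with -0.23 for EtOH and 1.82 for dex), MYEOV (0.90), APOL2 (0.89) and A4GALT, a glycolipid galactosyltransferase (1.25). In the other direction they were those of SQSTM1, the autophagy receptor p62 (-0.94), the antisense transcript SLC7A11-AS1 (-1.65), and the heat shock genes HSPA1A (-1.22) and HSPA1B (-0.99). The linear change with EtOH did not pass for any of these 8. HSPA1A and HSPA1B are near-identical copies, and how their reads were divided is not known.

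The step from 7 to 9 hours differed between the arms for 13 genes, TALDO1 and KLF15 among them. Every group had 2 libraries, so single libraries far from their group could not be tested for.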

How the results depend on the processing

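Counts over all features, for genes changed over time, rising, falling, and changed in the steps from 1 to 3, 3 to 5, 5 to 7, 7 to 9 and 9 to 11 hours, depended on several choices. Left out 1 at a time, the libraries gave ranges of 23 to 2305, 0 to 173, 0 to 67, 0 to 1, 0 to 154, 0 to 1696, 1 to 3444 and 0 to 541 calls, and 1033 to 1445 for trends that differ between the arms. Corrected for GC content and length as well, they gave 45 to 665, 2 to 171, 0 to 121, 0 to 1, 0 to 37, 0 to 685, 0 to 381 and 0 to 29. An adjusted p of at most 0.05 gave 221 over time, 4 rising, 0 falling, and 0, 295 and 987 in the steps from 3 to 5, 5 to 7 and 7 to 9 hours. Without a filter on low counts the values were 2120, 219 and 69, with 9, 327, 1418 and 38 in the steps from 1 to 3, 3 to 5, 5 to 7 and 9 to 11 hours. A minimum of 10 counts in every library gave 4 rising, 1 falling and 3 in the step from 3 to 5 hours. DESeq2 gave 44 rising, 14 falling, and 37 and 2 in the steps from 3 to 5 and 9 to 11 hours. Transcripts in place of genes gave 62, 35 and 16 in the step from 3 to 5 hours, and joined features alone 0 in that step. The correction gave 251, 54, 37, 309 (5 to 7 hours) and 292 (7 to 9 hours). One fit over 24 libraries gave 14 over time, 1 falling, and 0, 112, 771 and 1 in the last 4 steps. Hours as a number gave 0 rising and 0 falling. Without the time point of 1 hour 1 rose and 0 fell, without 3 hours 5 rose, without 5 hours 320 changed, 42 rose and 11 fell, without 7 hours 44, 49 and 12, without 9 hours 88 rose and 70 fell, and without 11 hours 0 and 0. The causes were not tested.

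Whether equal replicate numbers pair the samples is not settled, and the main fit used no block. Of 15 correlations of deviations between time points, from -0.25 to 0.31, 3 were above 0.1. These were the pairs among 1, 3 and 7 hours: 0.24 for 1 and 3 hours, 0.31 for 1 and 7 hours, and 0.31 for 3 and 7 hours. A replicate block gave 21 rising, 5 falling and 0 in the step from 3 to 5 hours, and with the correction the block gave 231, 52, 34, 2 (3 to 5 hours), 237 (5 to 7 hours) and 232 (7 to 9 hours).

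Of 16862 values of the linear change of 393 named genes under the alternatives, 15566 kept direction and side of the threshold, 163 lost the call, 1133 gained one and 0 reversed as a call. With 2 libraries per time point, a call rests on spread shared between features, and genes of low counts such as MACROD1 and TFF1 are the least certain.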

Other observations

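Among the 27 genes with a ratio of at least 2-fold between time points, several abundant ones were not called, and their 2 libraries at a time point differed widely. TMSB10, an actin-sequestering thymosin, read 330 and 627 CPM at 3 hours and 1023 and 568 CPM at 5 hours (adjusted p over time 0.543, edgeR). GPX4, the peroxidase that protects membrane lipids, read 61.7 and 153 CPM at 3 hours and 62.7 and 128 CPM at 7 hours, and 233 and 187 CPM at 5 hours (adjusted p 0.672). GPX1, a cytosolic glutathione peroxidase, read 21.3 and 35.9 CPM at 7 hours and 89.9 and 54.6 CPM at 5 hours (adjusted p 0.386). In each of the 3 genes the first library of 7 hours or of 3 hours was the lowest of 12 and the first library of 5 hours the highest and these libraries also lay toward the ends of the GC tilt. The part of that tilt in their spread was not tested.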
